A study of Homo sapiens with 8 samples.

Results

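The resistant lymphoma line Raji-4RH was compared with its parental line Raji while both were under chidamide, an inhibitor of histone deacetylases (HDAC). By their labels, 4 of the 8 RNA-seq libraries of the series belong to this comparison, 2 of Raji-4RH and 2 of Raji. Raji is a Burkitt lymphoma B cell line that is sensitive to rituximab, the therapeutic antibody against CD20, and Raji-4RH was obtained from it by exposing the cells to rituximab repeatedly. Both groups received chidamide at 3 μM for 24 h. The other 4 libraries are the same lines after 24 h with the solvent DMSO. All cells were at 2 to 3 passages, and flow sorting was used at harvest, with a gate that is not given in the sources used here. Whether Raji-4RH is 1 clone, and whether the 2 libraries of a group came from separate cultures, is not stated there either, so the p-values measure only the spread between these libraries, which may be technical. The comparison asks how far apart the resistant and the sensitive line are when both are exposed to the drug.

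Histone deacetylases remove acetyl groups from histone tails, and their inhibition raises acetylation and changes the transcription of many genes. B cells are known by the antigen receptor with its CD79 subunits, by CD20 and CD22 on the surface and by transcription factors such as PAX5. Rituximab binds CD20, the product of MS4A1, and acts through complement and through immune cells. The antigen, the complement regulators and the death pathways are thus among the parts of the cell that could bear on resistance to it. What part they have in the resistance of Raji-4RH was not tested.

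Levels are given as FPKM, a read count divided by the length of the gene and by the total reads of the library. The libraries held 20607517 and 20829054 reads in Raji and 13991697 and 18419076 in Raji-4RH under chidamide. Since the gene labels and the values of the deposited table run out of step from a point on, the labels after that point were given values from 1 to 14 rows below them and rescaled by gene length. Of 64 genes used by every cell and placed in this way, 64 were at 10 FPKM or more in all 8 libraries, against 13 in the row of their label. In the row of the label itself the direction of the difference was the opposite for CD55, SYK, IKZF3, ID4, MCL1, FADD, PARP1, CXCL10, IFITM2, CIITA, MYC, FOXO1, DEPTOR, GABARAPL1, DDIT3, DHCR7, LDHA, CRIP3, NSG1, SERPINA9 and PTH2, so what is said of these genes rests on the placing. Where a count of 5 or fewer genes is given for a list, its members outside the rule for named genes are named as well, and these were chosen after the values were seen. A pair of values joined by against gives both Raji libraries first and both Raji-4RH libraries second. All 8 B cell markers were at 1 FPKM or more in the 4 libraries, with a summed level of 1056 to 1067 FPKM in Raji and 646 to 686 in Raji-4RH. The 8 T cell markers summed to 1.21 to 1.41 FPKM in Raji and 12.5 to 14.2 in Raji-4RH. Of these, CD4 and CD3E made up most of the sum in Raji-4RH, and CD2, CD8A and TRAT1 stayed under 0.2 FPKM in each of the 4 libraries. Markers of myeloid cells summed to 11.05 to 11.24 FPKM in Raji and 11.01 to 12.05 in Raji-4RH. What part another cell type has in any result was not tested, and in these bulk libraries fewer cells with a transcript and less of it in each cell cannot be told apart.

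Differences are given as Raji-4RH minus Raji on the scale of log2(FPKM + 1), which understates the fold change of genes with low values. A gene was called at an adjusted p under 0.05 (limma, Benjamini-Hochberg over the 10706 genes tested). The lines differed in most genes that could be tested. Of all genes, 79.3% were called, 4745 higher in Raji-4RH (44.3%) and 3749 lower (35.0%). A difference of at least 2-fold was also present for 20.8%, with 1378 genes higher (12.9%) and 849 lower (7.93%). The groups did not overlap for 88.5% of genes, with Raji-4RH above Raji for 49.5% and below for 39.1%. These shares are the background against which every list is to be read. Under DMSO 73.7% of genes were called, 41.2% higher and 32.4% lower, and 8.54% were higher and 7.37% lower by at least 2-fold. Replicates lay close together, with a median distance of 0.049 on the log2 scale in Raji and 0.11 in Raji-4RH, while the median distance between the lines was 0.49. Quantile normalization changed the balance of the differences of at least 2-fold to 1037 higher and 1160 lower. With 2 libraries against 2, an exact permutation test of a single gene cannot give a two-sided p under 0.333, and the adjusted p-values given here depend on a variance that limma estimated from all genes and 8 libraries together.

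Genes of very different functions were silent or nearly silent in Raji and strongly expressed in Raji-4RH. EEF1A2 (ENSG00000101210, chromosome 20 from 63488012 to 63499322, GRCh38), a translation elongation factor that is normally found in muscle and neurons, stood at 0.121 and 0.168 FPKM in the 2 Raji libraries and at 374 and 474 FPKM in Raji-4RH. The difference was 8.53 with a standard error of 0.11 (limma, adjusted p = 4.04e-10), the largest among the 10706 genes tested. GSTP1, which conjugates drugs and electrophiles to glutathione, was at 0.203 and 0.326 FPKM in Raji and 165 and 155 in Raji-4RH. HSPB1, the small heat shock protein HSP27, was at 0.327 and 0.353 FPKM in Raji and 137 and 173 in Raji-4RH. The 2 groups were far apart for each of the 3 genes and the replicates of a group were close. EIF4EBP1, a repressor of cap-dependent translation, reached 81.1 and 81.7 FPKM in Raji-4RH with 0.271 and 0.0447 in Raji. SERPINB1, an inhibitor of neutrophil proteases, was at 0.220 and 0.295 FPKM in Raji and 62.6 and 59.6 in Raji-4RH.

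Several surface or cytoskeletal genes were in the same position. LGALS1 encodes galectin-1, a lectin that binds glycans on immune cells. It was the only 1 of the 12 leading genes with more than 1 FPKM in Raji, at 3.80 and 3.58 FPKM, and it stood at 255 and 242 FPKM in Raji-4RH, a difference of 5.73 (standard error 0.080). TNFRSF4, the costimulatory receptor OX40, was at 0.197 and 0.279 FPKM in Raji and 48.2 and 63.7 in Raji-4RH. ITM2C, a membrane protein, was at 0 and 0.0368 FPKM in Raji and 77.2 and 68.4 in Raji-4RH. The tetraspanin TSPAN13 and the tropomyosin TPM2 were higher by 5.60 and 5.51 on the log2 scale. All 12 leading genes also differed in the same direction under DMSO, where EEF1A2 differed by 8.17, GSTP1 by 6.71 and LGALS1 by 4.399.

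**Figure D1:**
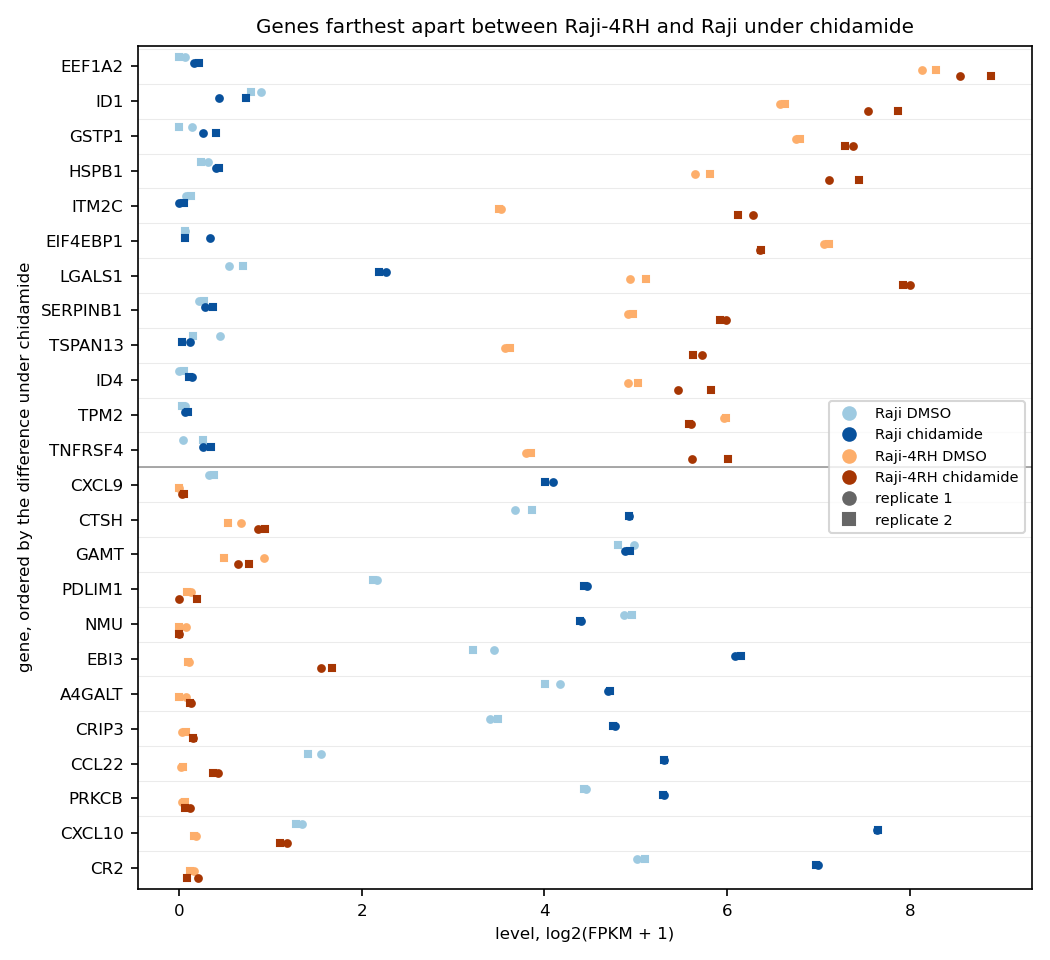
Level of the 12 genes highest and the 12 genes lowest in Raji-4RH relative to Raji under chidamide. The horizontal axis is log2(FPKM + 1), each point is 1 library, colors mark the 4 groups and shapes the 2 replicates. For every gene shown, the 2 dark blue points (Raji under chidamide) and the 2 dark brown points (Raji-4RH under chidamide) lie far apart. For CXCL10, CCL22 and CXCL9 the Raji libraries under DMSO lie under 2 on this axis, far below the Raji libraries under chidamide.

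The 12 genes that were lowest in Raji-4RH relative to Raji had varied functions. CR2 (ENSG00000117322, chromosome 1 from 207454230 to 207489895), the complement receptor CD21 of the B cell coreceptor, stood at 127 and 125 FPKM in Raji and at 0.161 and 0.0667 FPKM in Raji-4RH. The difference of -6.83 (standard error 0.063, limma adjusted p = 1.44e-10) was the most negative of the 10706 genes tested. PRKCB, the kinase that carries antigen receptor signals to NF-kB, was at 38.6 and 38.3 FPKM in Raji and 0.0926 and 0.0487 in Raji-4RH. CTSH, a lysosomal protease, was at 29.4 and 29.5 FPKM in Raji and 0.825 and 0.921 in Raji-4RH. Both were thus present in 1 line and close to nothing in the other. A4GALT, which makes the CD77 glycolipid of Burkitt lymphoma and germinal center cells, was at 24.9 and 25.3 FPKM in Raji and 0.0971 and 0.0922 in Raji-4RH. NMU, a neuropeptide, had no read in either Raji-4RH library and was at 20.2 and 19.9 FPKM in Raji, at least 104-fold higher when each empty library is given 3 reads. GAMT of creatine synthesis, PDLIM1, an actin-associated LIM protein, and CRIP3 differed by -4.21, -4.35 and -4.61.

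In all, 57 genes were at 5 FPKM or more in Raji-4RH and had at most 3 reads in each Raji library, and 11 genes showed the reverse. The same pattern held under DMSO for 24 of the 57 and for 5 of the 11. Under DMSO, 5 of the 57 were under 1 FPKM in Raji-4RH, and 1 of the 11 was under 1 FPKM in Raji. The examples that follow were chosen after the values were seen. OGDHL, a mitochondrial dehydrogenase subunit, stood at 25.7 FPKM in Raji-4RH with no read in Raji, at least 1016-fold higher. CD7, a surface protein of T and NK cells, was at 21.1 FPKM and at least 398-fold higher, and AHR, the aryl hydrocarbon receptor, was at 10.5 FPKM and at least 481-fold higher. In the other direction GSPT2, a translation termination factor, was at 7.78 FPKM in Raji with no read in Raji-4RH, at least 116-fold higher in Raji. Each bound gives the silent libraries 3 reads per library and covers counting error only.

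The surface antigens of B cells were mostly lower in Raji-4RH. Of 42 tested, 28 were called lower and 9 higher, 16 and 1 of them by at least 2-fold, and the median difference was -0.82, while it was 0.090 over all genes tested. MS4A1 (ENSG00000156738, chromosome 11 from 60455752 to 60470760), which encodes CD20, was at 129 and 118 FPKM in the Raji libraries and at 22.0 and 25.3 in those of Raji-4RH. The groups did not overlap, and the difference was -2.34 (standard error 0.079, limma adjusted p = 3.42e-08). Under DMSO the line difference was -2.06, and the difference between both values did not pass the test (interaction -0.28, adjusted p = 0.0702, limma). CD37, a tetraspanin that is also a target of antibodies, was at 63.2 and 63.6 FPKM in Raji and 36.4 and 45.8 in Raji-4RH. CD37 was thus lower in Raji-4RH by less than CD20, and both antigens were still expressed. CD83, a marker of activated B cells and dendritic cells, showed a wider gap, with 203 and 204 FPKM in Raji and 25.5 and 31.3 in Raji-4RH. FCRL3, an Fc receptor-like protein, SLAMF1 and the costimulatory ligand CD80 differed by -2.97, -2.69 and -2.25. The exception past 2-fold was SPN, the sialophorin CD43, with 5.90 and 5.63 FPKM in Raji and 30.0 and 27.5 in Raji-4RH.

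Among the complement receptors and regulators, 9 genes were tested, of which 3 were called higher (CD55, CD46 and C5AR1) and 4 lower (CR2, C3AR1, ITGAM and ITGAX). CD55, which dissociates the complement convertases on the cell surface, was at 4.43 and 4.61 FPKM in Raji and at 10.4 and 10.7 FPKM in Raji-4RH, a difference of 1.06 (standard error 0.053). CD46, the cofactor for the cleavage of C3b and C4b, was higher by 0.64, from 13.5 and 13.6 FPKM in Raji to 21.3 and 22.0 in Raji-4RH. The regulator that blocks the membrane attack complex, CD59, was at 10.8 and 10.4 FPKM in Raji and 9.73 and 8.77 in Raji-4RH and did not pass the test (difference -0.18, limma adjusted p = 0.0789). Under DMSO the CD59 difference was -1.28, and the interaction of 1.10 passed the test (limma adjusted p = 1.75e-04).

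Of 36 genes of antigen receptor signaling, 20 were called lower and 9 higher in Raji-4RH, with a median of -0.28. Besides CR2 and PRKCB, the kinase SYK, which acts next to the receptor, was at 80.8 and 79.8 FPKM in Raji and 24.2 and 26.0 in Raji-4RH, and the lipid kinase subunit PIK3CD was at 66.0 and 67.8 against 15.1 and 17.8. Both were thus lower in each Raji-4RH library than in either Raji library. CD79A of the receptor itself differed by -0.71 and the phospholipase PLCG2 by -0.85. The Src family kinase LCK, which is better known from T cells, went the other way. LCK was at 15.1 and 15.4 FPKM in Raji and 54.4 and 48.7 in Raji-4RH. The T cell markers summed above were higher in the same libraries, and their part in the level of LCK was not tested.

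Transcription factors of B cells split both ways, with 16 of 33 called lower and 12 higher. ID1, an inhibitor that keeps E proteins from binding DNA, was at 0.354 and 0.662 FPKM in Raji and at 186 and 233 FPKM in Raji-4RH (difference 7.12, standard error 0.12). ID4 of the same family was at 0.104 and 0.0819 FPKM in Raji and 43.2 and 55.5 in Raji-4RH. BACH2, a repressor that holds back plasma cell differentiation, was at 1.43 and 1.73 against 35.4 and 37.6, and LEF1, the nuclear partner of beta-catenin, at 0.0815 and 0.0985 against 11.2 and 12.7. All 4 were higher in each Raji-4RH library than in each Raji library. RUNX3 was lower in Raji-4RH by the most, at 128 and 133 FPKM in Raji and 21.4 and 30.3 in Raji-4RH. PAX5, the factor that sets B cell identity, was at 40.6 and 41.6 FPKM in Raji and 17.8 and 19.5 in Raji-4RH. The coactivator POU2AF1, the AP-1 factor BATF and the Ikaros family member IKZF3 were lower too, with differences of -1.15, -1.84 and -1.40, while POU2F2 differed by -0.44. BCL6, the repressor of the germinal center program, was at 36.5 and 36.7 FPKM in Raji and 37.4 and 40.5 in Raji-4RH and did not pass the test (difference 0.086, limma adjusted p = 0.18). Of 22 germinal center genes, 13 were called lower and 6 higher. SERPINA9, a serpin of germinal center B cells, was at 55.4 and 56.0 FPKM in Raji and 3.10 and 2.63 in Raji-4RH, MYBL1 differed by -1.96 and LRMP by -1.71, whereas LMO2 was higher by 1.14. Of 20 plasma cell and secretory genes, 8 were called lower, among them CD27 (-1.66), DERL3 (-2.16) and CD38 (-1.09), and 5 higher (ELL2, SEC11C, FKBP11, HERPUD1 and PRDX4).

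Many targets of NF-kB, and the chemokines CXCL10, CXCL9 and CCL22, differed more between the lines under chidamide than under DMSO. NF-kB is the transcription factor that is switched on by antigen, CD40 and Toll-like receptors. Of 31 NF-kB subunits and targets, 26 were called lower in Raji-4RH and 3 higher (IKBKB, TNFAIP2 and RELB), with a median of -0.92 under chidamide and -0.32 under DMSO. The share of all genes with an interaction, meaning a line difference under chidamide that differed from the line difference under DMSO, was 48.9%, and 6.31% had one of at least 2-fold, 4.07% positive (436 genes) and 2.24% negative (240 genes). After quantile normalization these were 358 positive and 342 negative. Of the 31 NF-kB genes, 21 had a negative interaction and 2 a positive one (IKBKB and TNFAIP2). It was at least 2-fold for 10 of the 21, and for TNFAIP2 of the 2. A negative interaction is not always a wider gap. Among the 10, NFKBIA differed by 1.08 under DMSO and -0.19 under chidamide, and IRF4 by 0.95 and -0.34. The lines were thus closer under chidamide for these genes, and further apart for the others of the 10. RELB and TNFAIP8, also among the 21, were closer under chidamide too. CXCL10 (ENSG00000169245, chromosome 4 from 76021117 to 76023497), a chemokine that draws in T and NK cells, was at 199 and 200.1 FPKM in Raji under chidamide and 1.28 and 1.15 in Raji-4RH. The line difference was -6.50 (standard error 0.057) with the drug and -1.14 without it, and the interaction of -5.36 (standard error 0.081, limma adjusted p = 2.08e-08) was the most negative of the 5235 genes called. The level in Raji under DMSO was only 1.55 and 1.44 FPKM. CXCL9, which shares the receptor of CXCL10, was at 16.1 and 15.1 FPKM in Raji and 0.0261 and 0.0396 in Raji-4RH under chidamide. CCL22, a chemokine for regulatory and helper T cells, was at 38.7 and 38.7 FPKM in Raji and 0.342 and 0.297 in Raji-4RH. For all 3 chemokines, Raji under chidamide was the 1 group of the 4 with more than 2 FPKM.

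BCL2A1, an antiapoptotic BCL2 family member, was at 34.2 and 36.1 FPKM in Raji and 2.36 and 2.59 in Raji-4RH under chidamide, and at 1.91 and 2.51 against 1.32 and 2.34 under DMSO. The libraries of the 2 lines thus overlapped under DMSO and differed by -3.38 under chidamide. EBI3, a subunit of interleukins 27 and 35, was at 66.7 and 70.2 FPKM in Raji and 1.95 and 2.20 in Raji-4RH. BIRC3, of the inhibitor of apoptosis family, was at 219 and 212 against 53.6 and 48.1. BIRC3 differed by nearly as much under DMSO (-1.97) as under chidamide (-2.06). The adhesion molecule ICAM1 was at 34.2 and 36.1 FPKM in Raji and 3.90 and 4.64 in Raji-4RH and differed by -2.78, and the receptor CD40 differed by -1.27. The kinase IKBKB, which frees NF-kB from its inhibitor, went the other way, with 2.63 and 2.55 FPKM in Raji and 8.71 and 9.14 in Raji-4RH.

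**Figure D2:**
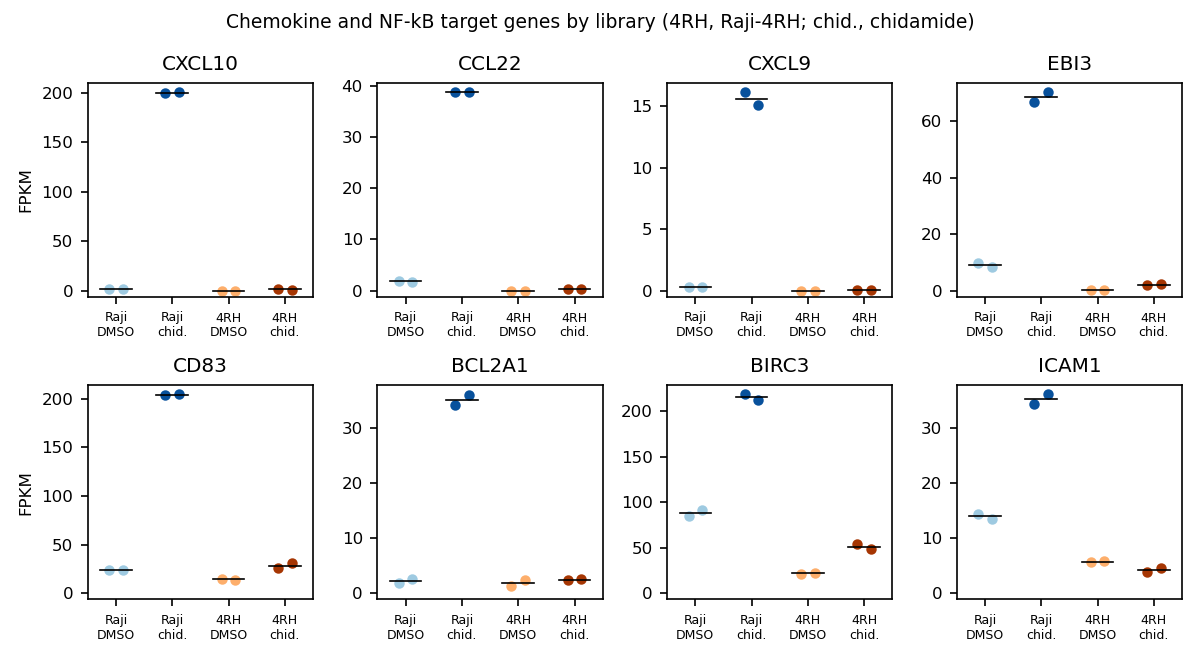
Level of 8 chemokine and NF-kB target genes in FPKM on linear axes that include 0, with 1 point per library and a bar at the mean of the 2 libraries of a group. The Raji libraries under chidamide (dark blue) stand above all others in each panel, at 199.7 FPKM on average for CXCL10 against 1.215 in Raji-4RH under chidamide.

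The 250 bases before the start of the 4 genes with the most negative interactions in these lists are shown. That these genes moved in the same direction follows from this choice. The sequences were searched for motifs of NF-kB and of the interferon pathway. They are RefSeq promoters on GRCh38.p14, written 5′ to 3′ on the strand of the gene. Capitals mark matches on either strand to GGGNNNNNCC, a loose form of the NF-kB site, and to GAAANNGAAA, a form of the interferon-stimulated response element (ISRE). Overlapping matches run together.
CXCL10 (chr4:76023498-76023747, minus strand): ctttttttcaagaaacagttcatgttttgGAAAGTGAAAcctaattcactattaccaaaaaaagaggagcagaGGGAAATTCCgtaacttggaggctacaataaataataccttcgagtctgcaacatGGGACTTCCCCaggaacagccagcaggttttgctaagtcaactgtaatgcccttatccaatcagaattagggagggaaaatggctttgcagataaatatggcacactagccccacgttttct
CXCL9 (chr4:76007510-76007759, minus strand): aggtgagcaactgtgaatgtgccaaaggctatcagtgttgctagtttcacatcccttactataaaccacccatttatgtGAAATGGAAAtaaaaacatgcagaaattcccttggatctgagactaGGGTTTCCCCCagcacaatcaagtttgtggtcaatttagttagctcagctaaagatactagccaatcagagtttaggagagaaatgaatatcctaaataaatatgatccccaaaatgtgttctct
CCL22 (chr16:57358533-57358782, plus strand): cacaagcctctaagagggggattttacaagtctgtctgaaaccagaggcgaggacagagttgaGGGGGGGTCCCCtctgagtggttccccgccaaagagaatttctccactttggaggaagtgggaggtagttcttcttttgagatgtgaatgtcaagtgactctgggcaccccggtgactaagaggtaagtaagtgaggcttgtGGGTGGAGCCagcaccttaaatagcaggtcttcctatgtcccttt
BCL2A1 (chr15:79971197-79971446, minus strand): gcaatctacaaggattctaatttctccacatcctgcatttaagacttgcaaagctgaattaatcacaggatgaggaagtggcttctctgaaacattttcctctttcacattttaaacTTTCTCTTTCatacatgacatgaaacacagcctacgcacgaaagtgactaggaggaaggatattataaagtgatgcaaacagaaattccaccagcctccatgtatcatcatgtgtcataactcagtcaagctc
The promoter of CXCL10 held 3 matches to the first motif and 1 to the second, that of CXCL9 held 2 and 1, that of CCL22 held 4 and 0, and that of BCL2A1 held 0 and 1. Of all 35116 RefSeq promoters of the same length, 54.4% held the first motif and 3.02% the second. A match is a run of letters, and no binding was measured here. What part these motifs have in the levels was not tested.

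Of 33 chemokines, cytokines and receptors tested, 18 were called lower in Raji-4RH and 12 higher. The median was -0.42 under chidamide and -0.35 under DMSO. The interaction passed the test with a negative value for 14 of the 33 and a positive one for 8. Among the higher ones, IL18 was at 0.0185 and 0.0548 FPKM in Raji and 5.47 and 6.45 in Raji-4RH, and TNFSF8, the CD30 ligand, at 0.0668 and 0.0661 against 7.30 and 7.16. The receptor subunits IL2RA and IL7R were higher by 1.42 and 1.05. CXCR4, the receptor that keeps B cells in bone marrow and germinal center dark zone, was at 89.8 and 82.6 FPKM in Raji and 137 and 151 in Raji-4RH, a difference of 0.73, while under DMSO it was -0.13. Costimulatory and checkpoint ligands had the lowest median of all lists, -1.02, with 11 of 13 called lower and 2 higher (PDCD1 and LGALS9). Besides CD80 and CD40, TNFRSF14, CD58 and CD48 were lower by at least 2-fold, with differences of -1.54, -1.02 and -1.57. CD48, the ligand of the NK receptor 2B4, was at 34.6 and 34.3 FPKM in Raji and 10.8 and 11.1 in Raji-4RH.

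Interferon response genes were called lower in 22 of 37 cases and higher in 12, with a median of -0.31 under chidamide and 0.042 under DMSO. IFIT3, which binds viral RNA complexes, was at 5.92 and 6.07 FPKM in Raji and 2.00 and 1.62 in Raji-4RH, and the factor IRF1 was at 13.4 and 14.4 against 6.003 and 6.69. ISG20, an exonuclease, differed by -1.298. In the other direction 3 genes stood out, IFITM1 with 0.225 and 0.489 FPKM in Raji and 15.3 and 12.8 in Raji-4RH, IFITM2 with 0.346 and 0.467 against 31.4 and 33.5, and LY6E with 0.0551 and 0.0364 against 19.5 and 26.9. The IFITM proteins block viral entry at membranes, and the IFITM genes resemble each other closely, so that reads could be split between them. LY6E differed by 4.51 under chidamide and 4.50 under DMSO.

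Of 19 genes of antigen presentation, 12 were called lower and 6 higher. CIITA, the coactivator that controls MHC class II genes, was at 45.9 and 48.3 FPKM in Raji and 14.3 and 16.0 in Raji-4RH. The difference was -1.57 under chidamide and -0.35 under DMSO, and the interaction was -1.23 (limma adjusted p = 3.28e-05). HLA-DQB1 is a class II chain from a family with close copies and many alleles. It was at 6.44 and 6.17 FPKM in Raji and 39.6 and 38.1 in Raji-4RH. Its difference was opposite in sign to that of CIITA, with 2.45 under chidamide and 2.87 under DMSO. The interaction of HLA-DQB1 was -0.42 (limma adjusted p = 0.00526), of the same sign as that of CIITA. Of 37 antigen presentation genes listed, 22 were placed. HLA-DPA1, also of class II, had 0 FPKM in all 8 libraries, and the reason was not tested. The other class II genes tested were lower in Raji-4RH, like CIITA, and are named after their values were seen. Their differences were -0.48 for HLA-DRB1, -0.40 for HLA-DQA1 and -0.46 for the invariant chain CD74. Under DMSO these 3 were called higher, by 0.50, 0.57 and 0.21.

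Genes of the cell cycle were mostly lower in Raji-4RH than in Raji under chidamide, and fewer of them were under DMSO. Of 42 S phase genes, 38 were called lower and 1 higher (PRIM1) under chidamide, with a median of -0.77. Under DMSO 6 were called lower and 29 higher, with a median of 0.35. The interaction was negative and passed the test for 40 of the 42, and was at least 2-fold for 20. MCM5, a subunit of the replicative helicase, was at 23.2 and 23.7 FPKM in Raji and 6.15 and 6.53 in Raji-4RH under chidamide, against 49.8 and 47.2 against 47.9 and 49.7 under DMSO. The libraries of the lines overlapped under DMSO (difference 0.0080, limma adjusted p = 0.905) and were apart by -1.74 under the drug (standard error 0.055, limma adjusted p = 2.28e-08). MCM4 of the same helicase differed by -2.13, and CDC6, which loads it, by -1.55.

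CDC45, the helicase activator, was called in opposite directions in the 2 treatments. It was at 7.45 and 7.07 FPKM in Raji and 2.86 and 3.00 in Raji-4RH under chidamide, and at 19.7 and 18.8 against 38.8 and 38.2 under DMSO. The same held for the replication factor MCM10 (-0.97 and 0.67), the ubiquitin ligase subunit DTL (-0.93 and 0.72) and cyclin E1, CCNE1 (-0.72 and 0.72). For each of these 4 genes the highest of the 8 libraries were those of Raji-4RH under DMSO and the lowest those of Raji-4RH under chidamide.

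Of 52 genes of G2 and M phase, 44 were called lower and 3 higher (CBX5, AURKA and CDCA2), with a median of -0.81 under chidamide. Under DMSO 20 were called lower and 12 higher, with a median of -0.074. AURKB, the mitotic kinase Aurora B, was at 45.7 and 44.1 FPKM in Raji and 11.4 and 11.9 in Raji-4RH. CKS2, a partner of cyclin-dependent kinases, was at 184 and 196 against 48.5 and 31.8. UBE2C, which serves the anaphase-promoting complex, and CDCA3 differed by -1.59 and -1.79. Among 24 cyclins, kinases, E2F factors and pocket proteins of G1 and S phase, 18 were called lower and 2 higher (E2F6 and TFDP1), with a median of -0.68. CDC25A, the phosphatase that activates CDK2, was at 11.6 and 12.4 FPKM in Raji and 1.18 and 1.31 in Raji-4RH, and the factor E2F2 was at 19.0 and 18.8 against 3.43 and 4.57. Cyclin A2, CCNA2, was at 28.98 and 28.1 against 8.48 and 9.43. These 3 regulators were each lower by more than 2-fold, and E2F3, E2F1 and CDK2 differed by -1.31, -0.64 and -0.53. CCND3 was at 30.4 and 30.9 FPKM in Raji and 24.8 and 30.1 in Raji-4RH and did not pass the test (limma adjusted p = 0.128).

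**Figure D3:**
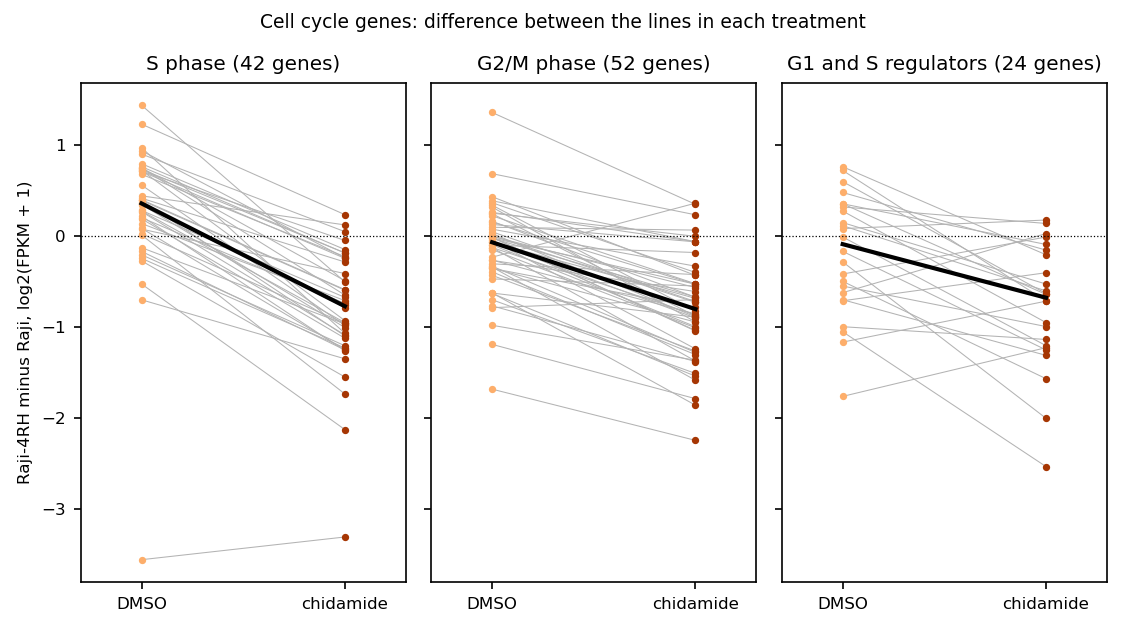
Difference between the lines for each gene of 3 cell cycle lists, as Raji-4RH minus Raji on the scale of log2(FPKM + 1), under DMSO (light points) and under chidamide (dark points). Thin lines join the 2 values of a gene and thick lines the medians, which for S phase genes lie at 0.35 under DMSO and at -0.77 under chidamide.

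The inhibitors of cyclin-dependent kinases went both ways, with 4 of 7 called lower (CDKN3, CDKN1B, CDKN2C and CDKN2D) and 2 higher (CDKN1A and CDKN2B). CDKN1A, which encodes p21, was at 51.6 and 51.4 FPKM in Raji and 161 and 169 in Raji-4RH, a difference of 1.66 (standard error 0.067). Its difference under DMSO was 1.47, with an interaction that did not pass the test (0.19, limma adjusted p = 0.133). CDKN1B, which encodes p27, was at 14.2 and 13.2 FPKM in Raji and 7.07 and 6.22 in Raji-4RH, and CDKN3, a phosphatase of CDK2, was at 45.1 and 45.6 against 19.2 and 16.6. The p21 gene was thus higher and the p27 gene lower in the resistant line. Of 55 DNA repair genes, 38 were called lower and 10 higher. RAD54L and FANCA, which act in homologous recombination and crosslink repair, and the checkpoint kinase CHEK1 differed by -1.82, -1.53 and -1.26. MGMT, which removes alkyl groups from guanine, was at 0.477 and 0.337 FPKM in Raji and 11.6 and 10.5 in Raji-4RH, and the base excision polymerase POLB was higher by 1.21.

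In the BCL2 family, 7 of 17 members were called lower and 6 higher. BAX, which permeabilizes the outer mitochondrial membrane, was at 43.9 and 43.6 FPKM in Raji and 8.48 and 9.99 in Raji-4RH, a difference of -2.13 (standard error 0.078), and it differed by -2.21 under DMSO. BAK1, the second effector of this kind, was at 23.8 and 21.8 FPKM in Raji and 20.4 and 21.5 in Raji-4RH and did not pass the test (difference -0.11, limma adjusted p = 0.116). Among the protective members, MCL1 was at 116 and 116 FPKM in Raji and 72.9 and 76.0 in Raji-4RH, and BCL2L1, which encodes BCL-XL, at 13.7 and 12.7 against 7.22 and 6.82. Both were lower in Raji-4RH, like BCL2A1 above and BCL2L12 (-1.89), while BCL2 itself had 2.79 and 3.05 against 3.57 and 2.97 FPKM and did not pass the test (difference 0.12, limma adjusted p = 0.199). Of the proapoptotic sensors, BMF was higher by 1.89, with 12.2 and 12.9 FPKM in Raji and 46.7 and 51.7 in Raji-4RH.

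Death receptors and caspases were called higher in 15 of 31 cases and lower in 11. The TRAIL receptors TNFRSF10A and TNFRSF10B were higher in Raji-4RH, the latter at 14.5 and 13.5 FPKM in Raji and 36.6 and 43.9 in Raji-4RH. FAS was at 9.47 and 8.75 FPKM in Raji and 2.30 and 2.46 in Raji-4RH, and its adaptor FADD at 12.3 and 11.2 against 5.16 and 4.34. FAS and FADD were thus lower where the TRAIL receptors were higher. The TNF receptor TNFRSF1B differed by -1.68. CASP8, which starts the receptor pathway, differed by 0.55 and the inflammatory caspase CASP1 by 1.81. PARP1, a caspase substrate and DNA repair enzyme, was at 117 and 118 FPKM in Raji and 126 and 128 in Raji-4RH and did not pass the test (limma adjusted p = 0.0585).

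The histone deacetylases, of which the study describes chidamide as a selective inhibitor, were expressed in both lines. Which members it inhibits was not measured here. Of 11 histone deacetylases, 5 were called lower (HDAC2, HDAC4, HDAC1, HDAC7 and HDAC8) and 4 higher (HDAC9, HDAC11, HDAC5 and HDAC6), with a median of -0.077 that turned to 0.052 after quantile normalization. HDAC1 was at 155 and 154 FPKM in Raji and 116 and 107 in Raji-4RH, and HDAC2 at 10.1 and 9.78 against 5.62 and 5.15. Their differences were -0.46 and -0.78. HDAC3 was at 24.7 and 25.9 FPKM in Raji and 24.4 and 23.4 in Raji-4RH and did not pass the test (difference -0.077, limma adjusted p = 0.224). HDAC9, a class II enzyme, was at 0.969 and 0.973 FPKM in Raji and 5.77 and 5.59 in Raji-4RH. Among 29 corepressors, acetyltransferases and acetyl readers, 11 were called higher and 10 lower, with the acetyltransferase KAT6A at 1.305 and the NuRD helicase CHD3 and the SIN3 subunit SAP30 at -1.23 and -1.09. Among 25 genes of DNA methylation and Polycomb, 11 were called higher and 8 lower. DNMT1, which copies methylation at replication, was at 97.3 and 96.5 FPKM in Raji and 28.1 and 32.4 in Raji-4RH, while RNF2, the ubiquitin ligase of Polycomb complex 1, was at 1.596 and 1.49 against 9.53 and 8.34.

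BTG1 (ENSG00000133639, chromosome 12 from 92140278 to 92145897), an antiproliferative gene of the BTG and TOB family, was at 18.8 and 18.7 FPKM in Raji and at 40.7 and 46.0 FPKM in Raji-4RH. The difference was 1.17 under chidamide (standard error 0.071, limma adjusted p = 9.61e-07) and 0.24 under DMSO, and the interaction of 0.93 passed the test (limma adjusted p = 1.72e-04). TOB1 of the same family was higher by 1.15. Of the 5 members tested, 2 were called higher and 2 lower (BTG2 and BTG3). FOXO1, a transcription factor that is kept out of the nucleus by AKT, was at 16.7 and 16.3 FPKM in Raji and 22.9 and 24.9 in Raji-4RH, a difference of 0.50 (standard error 0.057), and AKT1 was at 12.6 and 12.5 against 7.54 and 8.58, a difference of -0.58. Under DMSO the difference of FOXO1 was 0.13 and did not pass the test (limma adjusted p = 0.0652), and its interaction was 0.37 (limma adjusted p = 0.00554). AKT1 was called lower under DMSO too (-0.60), and its interaction did not pass the test (0.013, limma adjusted p = 0.93). The serum-regulated kinase SGK1 was at 35.1 and 35.5 FPKM in Raji and 3.89 and 4.36 in Raji-4RH, and the mTOR inhibitor DEPTOR at 2.98 and 2.86 against 12.3 and 12.9.

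Of 48 genes of autophagy and lysosomes, 24 were called higher in Raji-4RH and 14 lower, and 8 of the 24 were past 2-fold. Over all genes tested, 44.3% were called higher, 35.0% lower and 12.9% higher by at least 2-fold. The counts of this list lie near these shares. The members named next were all higher in Raji-4RH under chidamide, and those called lower are not named. BNIP3, a receptor for the removal of mitochondria, was at 0.492 and 0.460 FPKM in Raji and 12.4 and 11.7 in Raji-4RH. The lysosomal protease CTSB was at 0.621 and 0.666 against 12.3 and 12.6, and the cargo receptor NBR1 at 3.34 and 3.54 against 17.0 and 16.8. Each of the 3 differed by more than 2 on the log2 scale. GABARAPL1 and MAP1LC3B, which are conjugated to the autophagosome membrane, differed by 1.62 and 0.83, and the cargo receptor SQSTM1, also called p62, by 0.44. SESN3, a sestrin that restrains mTOR, was at 7.70 and 7.69 FPKM in Raji and 17.5 and 17.6 in Raji-4RH under chidamide and at 2.71 and 2.91 against 1.25 and 1.17 under DMSO, so that its direction turned between the treatments.

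Glycolysis genes were lower in 15 of 24 cases and higher in 6, with a median of -0.50. TPI1, triosephosphate isomerase, was at 397 and 384 FPKM in Raji and 141 and 131 in Raji-4RH, and LDHA, which makes lactate, at 159 and 159 against 68.6 and 66.9. ALDOC and PFKFB4 differed by -1.75 and -1.52. The lactate exporter SLC16A3 went the other way by 4.03, with 0.232 and 0.224 FPKM in Raji and 20.4 and 17.9 in Raji-4RH. Genes of cholesterol and fatty acid synthesis were lower in 23 of 33 cases and higher in 5 (FADS2, INSIG2, TM7SF2, MSMO1 and SREBF2), with a median of -0.38. FASN, the fatty acid synthase, was at 145 and 149 FPKM in Raji and 26.6 and 36.8 in Raji-4RH, and MVD of the mevalonate pathway at 47.4 and 49.3 against 11.53 and 12.4. DHCR7 and INSIG1 differed by -1.47 and -1.32.

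Stress response genes were higher in 18 of 33 cases and lower in 12, with a median of 0.29 under chidamide and 0.42 under DMSO. Leading members were CEBPB, a transcription factor, with 11.1 and 12.3 FPKM in Raji and 56.6 and 79.2 in Raji-4RH, ASNS, asparagine synthetase, with 8.84 and 7.96 against 35.4 and 38.7, and DDIT3 and TRIB3, which act downstream of ATF4, with differences of 1.39 and 1.15. All 4 were called higher under DMSO as well. TRIB3 differed by 2.39 there, so its gap was narrower under chidamide (interaction -1.24, limma adjusted p = 3.69e-04). Of the 12 called lower, HYOU1, PDIA6 and SLC7A11 differed by the most, with -0.98, -0.92 and -0.66, and are named after their values were seen. Among 18 ABC transporters, 8 were called higher and 7 lower, and the median of 0.13 turned to -0.010 after quantile normalization. ABCB1, the drug efflux pump P-glycoprotein, was at 0.226 and 0.331 FPKM in Raji and 5.47 and 6.25 in Raji-4RH, a difference of 2.42 (standard error 0.075, limma adjusted p = 2.03e-08). It was at 0.0436 and 0.0342 against 0.909 and 0.991 FPKM under DMSO, and the interaction was 1.51 (limma adjusted p = 2.22e-05). ABCC1, a second efflux pump, was at 23.2 and 24.0 FPKM in Raji and 17.2 and 19.99 in Raji-4RH and was lower by a small margin (-0.33). ABCA1, which exports cholesterol, and ABCC5 were higher by 1.62 and 1.04, and ABCA7 and ABCC4 differed by -1.35 and -1.02.

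Adhesion molecules were called higher in 11 of 22 cases and lower in 9. CD99 and CD63 were higher by 1.221 and 1.09, and ICAM3 was at 1.94 and 1.95 FPKM in Raji and 5.98 and 7.62 in Raji-4RH. Of 22 members of the JAK, STAT and SOCS families with PIM kinases and phosphatases, 11 were called lower and 6 higher. TYK2, the kinase of interferon and interleukin receptors, was at 58.1 and 60.6 FPKM in Raji and 19.4 and 20.9 in Raji-4RH, and STAT5A at 1.11 and 1.15 against 6.96 and 7.39. PIM1 differed by -1.15 and PTPN1 by 1.04. MYC, the translocated oncogene of Burkitt lymphoma, was at 169 and 169.5 FPKM in Raji and 151 and 181 in Raji-4RH and did not pass the test (difference -0.034, standard error 0.089, limma adjusted p = 0.741), and of 10 genes of the MAX network 4 were called lower (MAX, MYCL, MLXIP and MGA) and 3 higher (MXD1, MXD4 and MXI1).

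Genes from lists named for neurons and for germ cells were also part of the gap. Not all of them were low in Raji, as UCHL1 was at 137 and 137 FPKM in Raji and 203 and 206 in Raji-4RH. Of 17 neuronal genes above the level for testing, 12 were called higher in Raji-4RH and 2 lower (SYP and SYT11), and 25 of the 42 placed were not tested. Since a gene of this kind could pass that level through the group in which it is high, the count is a description. TUBB4A, a beta tubulin of neurons that resembles other tubulins closely enough for reads to be shared, was at 0.0420 and 0.0554 FPKM in Raji and 22.7 and 27.5 in Raji-4RH under chidamide, while under DMSO it was at 0.0584 and 0.0143 against 0.692 and 0.790. Its interaction of 3.88 (standard error 0.12, limma adjusted p = 1.34e-06) was the most positive of all genes called in both the interaction and the comparison under chidamide and above 5 FPKM in some group. GNG8, a G protein subunit, was at 3.59 and 1.78 FPKM in Raji and 31.1 and 25.4 in Raji-4RH, and CPLX1 and NSG1 differed by 2.56 and 3.16. Of 36 germline and cancer-testis genes placed, 6 were tested and 5 called higher (TEX19, CTCFL, PRAME, TEX14 and STAG3). CTCFL, PRAME and TEX14 were under 1 FPKM in each Raji library and reached the level for testing only through Raji-4RH. This count is therefore a description too. TEX19, a germ cell gene, was at 7.72 and 7.64 FPKM in Raji and 34.3 and 28.9 in Raji-4RH.

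Metallothioneins bind zinc and other metals, and both of those tested, MT2A and MT1X, were closer between the lines under chidamide than under DMSO. MT2A was at 98.4 and 102 FPKM in Raji and 79.7 and 61.9 in Raji-4RH with the drug, and at 36.8 and 38.9 against 1.27 and 1.31 without it. The line difference was -0.50 under chidamide and -4.08 under DMSO, with an interaction of 3.58 (standard error 0.14, limma adjusted p = 2.92e-06). MT1X, named after the values were seen, was at 12.8 and 12.5 FPKM in Raji and 20.1 and 11.8 in Raji-4RH with the drug, and at 10.00 and 12.3 against 1.44 and 1.52 without it. Its line difference was 0.27 under chidamide, which did not pass the test (limma adjusted p = 0.24), and -2.28 under DMSO, with an interaction of 2.55 (limma adjusted p = 1.87e-04). Close copies of these genes lie side by side in the genome, and how reads were shared among them is not given in the sources used here. CYP26A1, which breaks down retinoic acid, also differed less between the lines under chidamide, at 43.7 and 43.3 FPKM in Raji-4RH under DMSO and 9.04 and 7.11 under chidamide, with less than 0.2 FPKM in all Raji libraries.

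A majority of the differences of at least 2-fold under chidamide had a counterpart under DMSO. Of the 2227 genes that differed by at least 2-fold under chidamide, 1205 also did so under DMSO, which is 54.1% of these genes and 70.8% of the 1703 genes (15.9% of those tested) with such a difference under DMSO. All 1205 had the same direction, 727 higher and 478 lower in Raji-4RH, and the 2 comparisons share no library. Across the 10706 genes the Pearson correlation of the line differences was 0.836, given as a description because genes are not independent. For 677 of the 2227 genes the interaction did not pass the test. For 1196 it passed with a difference of the same sign that was larger under chidamide, 797 of them higher and 399 lower in Raji-4RH, and for 290 it passed with a smaller difference under chidamide. The signs were opposite for 64.

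FSCN1, an actin-bundling protein of activated lymphoid cells, was far apart between the lines under chidamide and low in both under DMSO. It was at 11.4 and 13.1 FPKM in Raji and 0.581 and 0.456 in Raji-4RH under chidamide, and at 0.219 and 0.363 against 0.477 and 0.320 under DMSO. DAPL1 was at 11.4 and 10.7 FPKM in the Raji-4RH libraries under chidamide, TMEM119, a membrane protein, at 5.80 and 7.15, and PTH2, a neuropeptide, at 8.41 and 8.75. These 3 genes were under 0.5 FPKM in each of the other 6 libraries. A turn of direction was found for HMCES, which shields abasic sites in DNA, at 54.2 and 52.8 FPKM in Raji and 115 and 87.5 in Raji-4RH under chidamide and at 77.8 and 78.6 against 42.3 and 44.6 under DMSO. The actin-capping gene CAPG (0.81 and -1.08) and the secreted factor METRNL (0.76 and -1.25) turned in the same way. In all, 512 genes were called in both treatments with opposite directions.

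**Figure D4:**
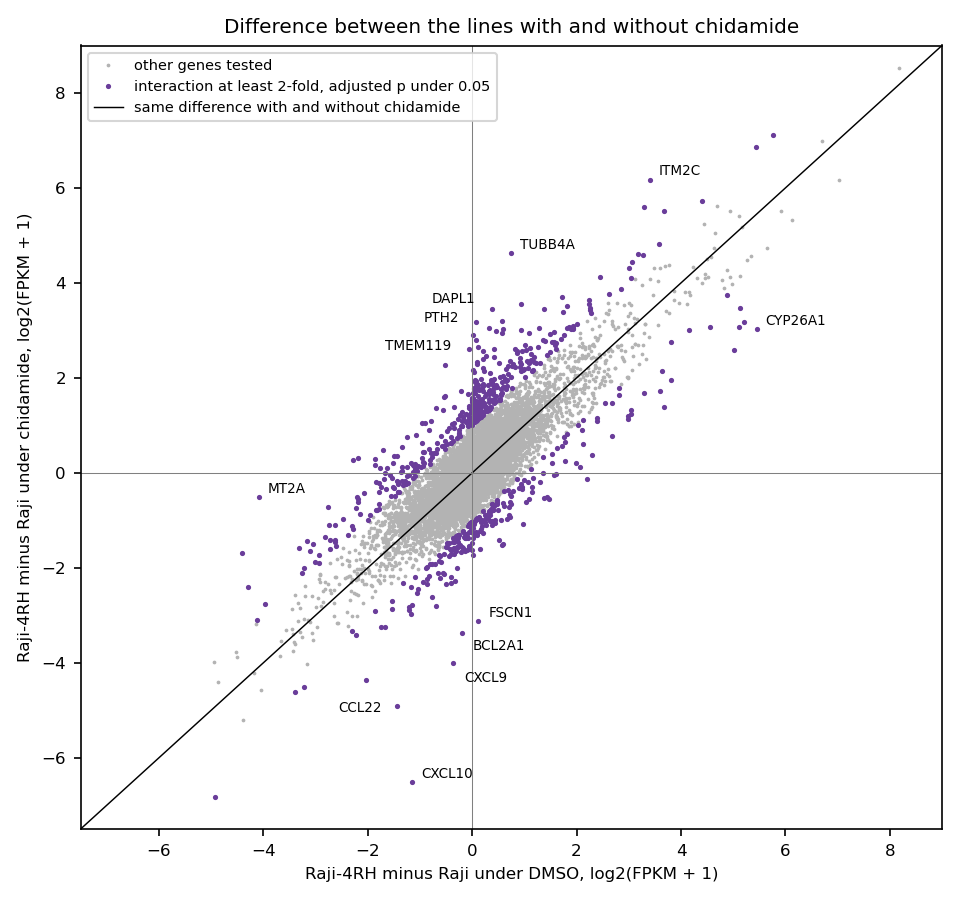
Line difference (Raji-4RH minus Raji, log2(FPKM + 1)) under chidamide on the vertical axis against the same under DMSO on the horizontal axis, with 1 point for each of the 10706 genes tested. Purple points are the 676 genes with an interaction of at least 2-fold, and the 12 named genes are those with the widest interactions by the rule given in the methods. CXCL10 lies at -6.50 under chidamide and -1.14 under DMSO, and TUBB4A at 4.63 and 0.75.

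**Figure D5:**
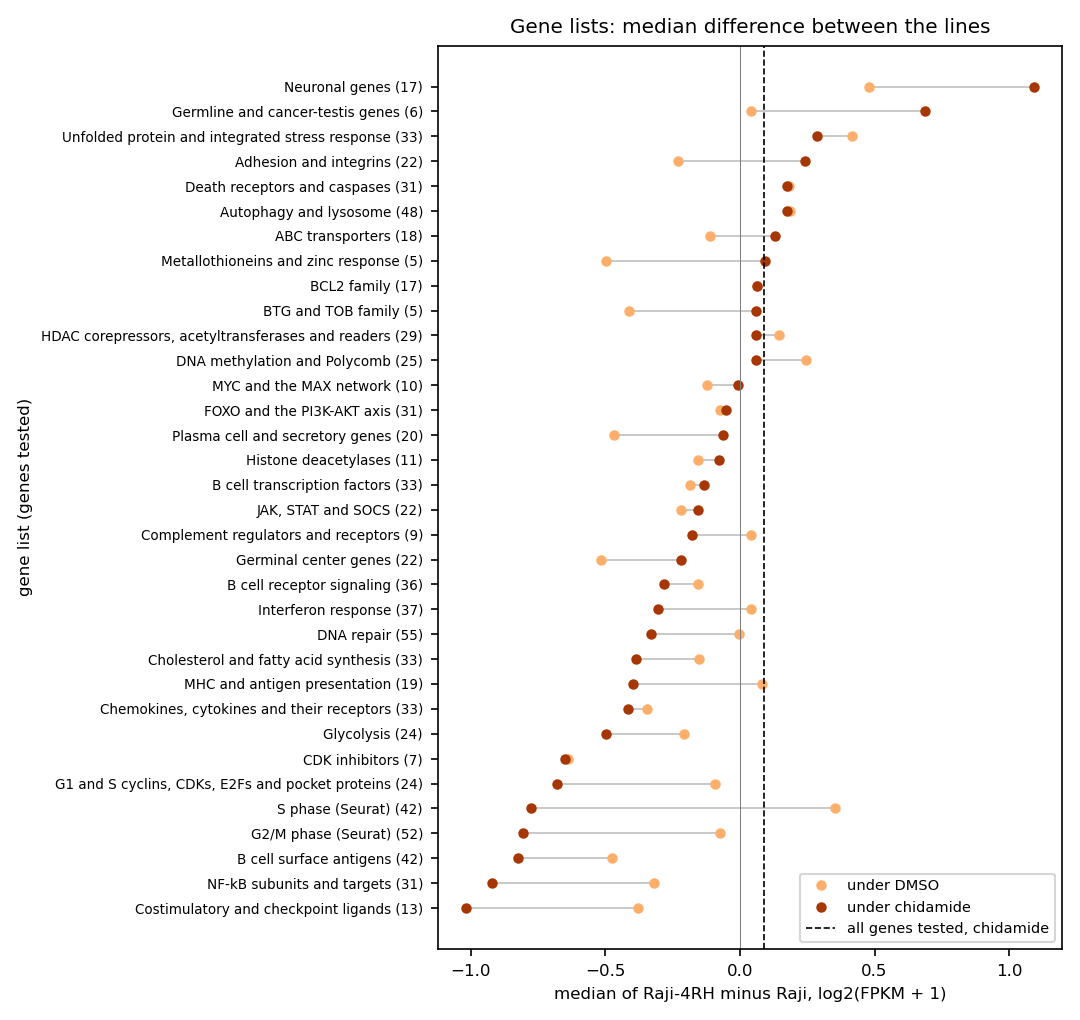
Median line difference (Raji-4RH minus Raji, log2(FPKM + 1)) of each gene list under DMSO (light points) and chidamide (dark points), with the number of genes tested in brackets. The dashed line is the median of all genes tested under chidamide, 0.090, and the list of costimulatory and checkpoint ligands lies at -1.02. The medians cover only the genes that reached the level for testing, which for neuronal and germline genes are the smaller part of the list and in part reached it only in the Raji-4RH libraries, so the place of these lists in the order is not a result.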

How the data were processed

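RNA-seq was made from the 8 libraries with a NEBNext Ultra kit, which does not mark strand unless used in its directional form, so that reads of overlapping and antisense genes cannot be told apart. The submitters' processing notes name HISAT2 2.0.5, SAMtools 1.7, HTSeq 0.9.1, DESeq2 1.22.2 and GRCh38 (hg38). The authors deposited FPKM per gene, which they computed from read counts per gene, gene length and library total. From the deposited FPKM values and lengths whole reads were recovered for all values (tolerance 0.01), with totals of 18755227 to 21193441 reads in the 6 libraries other than those of Raji-4RH under chidamide. No filtering or pooling before deposit is stated in the sources used here.

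The table has 63967 labels and 63305 sets of values, and 662 repeated rows put labels and values out of step. Each label was given the values a fixed number of rows below it, and FPKM was multiplied by the length of the value row over that of the label row. This placed 18113 genes, 11880 of them with a shift, and 28.4% of labels. The other labels were not used here. Reads in placed rows made up 90.7% to 93.2% of each library. Coordinates are from GENCODE 29 on GRCh38, which held 18067 of the genes.

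Genes with at least 1 FPKM in 2 or more libraries were tested on log2(FPKM + 1) with limma 3.58.1 in R 4.3.3 (lmFit, eBayes with trend) over 4 groups of 2 libraries, two-sided, with Benjamini-Hochberg adjustment. The same fit gave the line difference under DMSO and the interaction. Depth sets the precision of low genes, and 1 read of a gene of 2 kilobases is a few hundredths of an FPKM. The fit was tested on simulated data with known changes. Tables and plots used Python 3.11.15, pandas 2.3.3, numpy 2.4.6 and matplotlib 3.10.9.

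Genes were named by rule. The first part took the 12 highest and 12 lowest genes called, with at least 5 FPKM in the higher group and no overlap. The second took up to 4 called members per list and direction with at least 2-fold and 5 FPKM, and the third key members of each list. The last parts took the 6 most positive and 6 most negative interactions, and the 4 genes a direction called in opposite directions in both treatments. Genes of chromosome Y and XIST were left out, and some further genes that the rule selects are not reported here. The comparison and the gene lists were chosen with earlier results of these data known. Alternatives covered the pseudocount, filter, scaling, test, replicate block, placing and each library left out, and restriction to protein-coding genes was added after the data were seen. Promoter sequences are from RefSeq (GRCh38.p14).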

Additional observations from a re-analysis of the deposited data

Results flagged for a closer look

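The line difference under chidamide differed from that under DMSO for 5235 of the 10706 genes tested, and by at least 2-fold for 676 (limma interaction, adjusted p under 0.05). The genes named here were picked by rules on the same values, so their values are a description.

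Positive interactions, with the difference of Raji-4RH minus Raji larger under chidamide than under DMSO, were 3.88 for TUBB4A, 3.58 for MT2A, 3.11 for PTH2, 3.06 for DAPL1, 2.89 for TMEM119 and 2.76 for ITM2C. Negative interactions were -5.36 for CXCL10, -3.64 for CXCL9, -3.46 for CCL22, -3.24 for FSCN1, -3.18 for BCL2A1 and -2.43 for CYP26A1. MT2A and CYP26A1 differ from the others in that the gap between the lines was wider under DMSO.

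Among genes called in opposite directions in the 2 treatments, the interaction was 2.01 for METRNL, 1.88 for CAPG, 1.88 for SESN3 and 1.73 for HMCES, which were higher in Raji-4RH under chidamide and lower under DMSO. It was -2.04 for CDC45, -1.65 for DTL, -1.64 for MCM10 and -1.43 for CCNE1, which went the opposite way and all serve DNA replication or its start.

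Reads also lay in rows of the table whose gene label could not be placed. Their share was 6.90% and 6.78% in the Raji libraries under DMSO, 7.78% and 7.82% in Raji under chidamide, 7.64% and 7.38% in Raji-4RH under DMSO, and 9.25% and 8.76% in Raji-4RH under chidamide. The genes in these rows are not analysed here.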

How the results depend on the processing

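Counts of genes called kept within 1.5 times of those given under most alternatives. Restricting the table to labels without a shift, which leaves fewer genes to test, gave 3463 genes called under chidamide and 864 by at least 2-fold, 3258 and 639 under DMSO, and 2178 and 280 for the interaction. With limma voom on the recovered reads the count of at least 2-fold was 2809 under DMSO and 1178 for the interaction, and with a pseudocount of 0.1 it was 2656 and 1266. Both alternatives give low genes wider fold changes by construction.

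Leaving out each library in turn gave 7705 to 8585 genes called under chidamide and 2210 to 2271 by at least 2-fold, 6966 to 8438 and 1679 to 1737 under DMSO, and 4048 to 6044 and 678 to 706 for the interaction. An arm of 1 library is then assumed to vary like the others.

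With a replicate block 8398 genes were called under chidamide and 2227 by at least 2-fold, 7751 and 1703 under DMSO, and 4920 and 678 for the interaction. Deviations of same-numbered libraries correlated by 0.0098 between the 2 chidamide groups, by -0.16 between the 2 DMSO groups and by -0.28 to 0.17 over all 6 pairs of groups. These values show no clear pairing by number, but with 2 libraries a group they cannot exclude one. A crossed pairing was not run. The block changed no call of a named gene.

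Taking values from the row of the label itself reversed 21 of the named genes. Their differences there were 0.33 for CXCL10, 1.04 for CRIP3, 0.69 for SYK, 0.42 for IKZF3, 0.95 for MCL1, 0.42 for FADD, 0.37 for CIITA, 0.52 for MYC, 0.29 for DHCR7, 1.14 for LDHA and 0.32 for SERPINA9. They were -1.40 for ID4, -0.93 for CD55, -0.17 for PARP1, -0.40 for IFITM2, -1.44 for GABARAPL1, -0.66 for DEPTOR, -0.88 for FOXO1, -0.90 for DDIT3, -0.27 for NSG1 and -0.12 for PTH2. In that setting the values belong to other genes.

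Quantile normalization turned 4 genes that had not passed the test, with -0.18 for BCL2, 0.0023 for BAK1, 0.052 for HDAC3 and 0.049 for MYC. The MYC difference was 0.098 without the first Raji-4RH chidamide library and -0.17 without the second, so its sign rests on 1 library. The cause was not tested. The medians of the BCL2 family, of corepressors, of the BTG family and of DNA methylation genes lay within 0.07 of 0 and turned sign when each library was centred on its median.

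With 2 libraries a group and 13991697 reads in the shallowest library, differences of low genes are the least certain. The labels give no cultures, and 71.6% of labels were left unplaced.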

Other observations

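The line difference under chidamide was not even along the genome. In 200 windows of 10 megabases with at least 20 genes tested, the median difference of a window had a median of 0.11. On chromosome 8 the windows from 20 to 50 megabases had medians of 0.93 to 0.94, and in the first of them 35 of 40 genes were called higher in Raji-4RH and 1 lower. On chromosome 2 the window from 40 to 50 megabases had a median of -0.91, with 23 of 27 genes called lower and 3 higher. The window from 10 to 20 megabases of chromosome 6 had a median of -0.86. Over whole chromosomes, chromosome 20 had the largest median, 0.45 over 309 genes, with 205 called higher and 40 lower, and chromosome 15 the lowest, -0.17. The window medians under chidamide and under DMSO had a Pearson correlation of 0.931 over the 200 windows, which rests on the same genes in different libraries and is given as a description.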
